A study of Homo sapiens with 6 samples.

Results

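The genes described here make fatty acids and cholesterol, or act on the fat made from them: FASN, ACACB, ELOVL5, ME1, PNPLA3, SQLE, EBP, HSD17B7 and ACAT2. They were chosen by symbol, and all 9 were found, in 10 of the 10191 rows of a table that names 9754 genes. Each row is 1 RefSeq transcript. The RNA came from Huh7, a cultured line derived from a human liver cancer, and was taken 1 week after selection with puromycin for a short hairpin RNA. In 3 libraries the hairpin was scrambled, and in 3 it was directed against ABL1, the gene of a cytoplasmic and nuclear tyrosine kinase. The question was what differs in the RNA of these cells when ABL1 is knocked down. The labels name no other treatment and do not say how many hairpin sequences were used or whether the triplicates were separate infections, so the p-values speak of the spread between libraries, which may be technical.

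In a liver cell, cytosolic acetyl-CoA feeds both pathways. For fatty acids, an acetyl-CoA carboxylase makes malonyl-CoA, fatty acid synthase joins the units with NADPH as the reductant, and elongases and desaturases then lengthen and desaturate the product. For cholesterol, the mevalonate pathway makes squalene, which is oxidised, cyclised to lanosterol and trimmed to cholesterol by a chain of enzymes in the endoplasmic reticulum. Both pathways are known targets of the SREBP transcription factors, whose processing depends on SCAP, INSIG proteins and the proteases MBTPS1 and MBTPS2.

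The libraries held 6651413 to 10487862 counted reads. Values are given as normalized counts, which are reads multiplied by the authors' scale factor for that library. On this scale the summed count was 8573340 to 8744040 under the scrambled hairpin and 7517864 to 7779025 in the knockdown. The row of the ABL1 transcript NM_007313 held 88, 64 and 76 reads with the scrambled hairpin and 14, 9 and 9 with the ABL1 hairpin, while the thin row of NM_005157 went the other way, with 11, 6 and 11 reads against 18, 17 and 24. Of the hepatocyte markers, ALB, TF, APOB, TTR and AFP were tested. Their summed level was 461663 to 520998 in the scrambled libraries and 395245 to 440537 in the knockdown. On the authors' scale, 3 of these 5 were called lower (ALB, TF and APOB), APOB not with equal totals or quantile normalization. None of the 4 adipocyte markers was among the rows. The immune markers LYZ and LAPTM5 (2 of 5) summed to 5679 to 6298 and 6526 to 7466, the fibroblast markers (4 of 5 tested) to 1077 to 1162 and 782 to 894, the endothelial markers (3 of 4) to 159 to 173 and 114 to 138, and the biliary markers (3 of 4) to 8241 to 9478 and 5669 to 6130. The immune, fibroblast and endothelial sums follow their most abundant rows (LYZ, COL1A1 and PECAM1), and single markers of these lists moved both ways. LAPTM5 (log2 change -2.39), COL1A1 (-1.03), CDH5 (-1.14), PECAM1 (-0.59), KRT19 (-0.83) and SOX9 (-0.48) were called lower, and LYZ (0.21), LUM (2.11), COL3A1 (1.54) and VWF (1.08) were called higher. The part that these shifts and the lower summed count take in the results below was not tested. In RNA from a whole culture, fewer cells of a kind and less RNA per cell cannot be told apart.

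With ABL1 knocked down, the genes did not move one way. PNPLA3 and EBP had the largest falls, to levels 2.97-fold and 1.77-fold lower, and FASN and SQLE fell by less, on the authors' scale but not with equal totals or quantile normalization. ME1, ACACB, HSD17B7 and a short transcript of ELOVL5 rose, and ACAT2 did not pass the test. Of the 9 genes, 4 were called higher and 4 lower by limma (two-sided, Benjamini-Hochberg adjusted p under 0.05 over 8600 rows). Over the whole table, 52.4% of the 8382 genes tested were called, 24.7% being higher in the knockdown and 27.7% lower. The libraries of the groups did not overlap for 8 of the 9 genes, and did not overlap for 59.3% of all genes. The median log2 change was 0.31 over the 9 genes and 0.0012 over all genes tested. Calls were thus frequent across the whole table, and the counts for these 9 genes are a description of them.

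**Figure D1:**
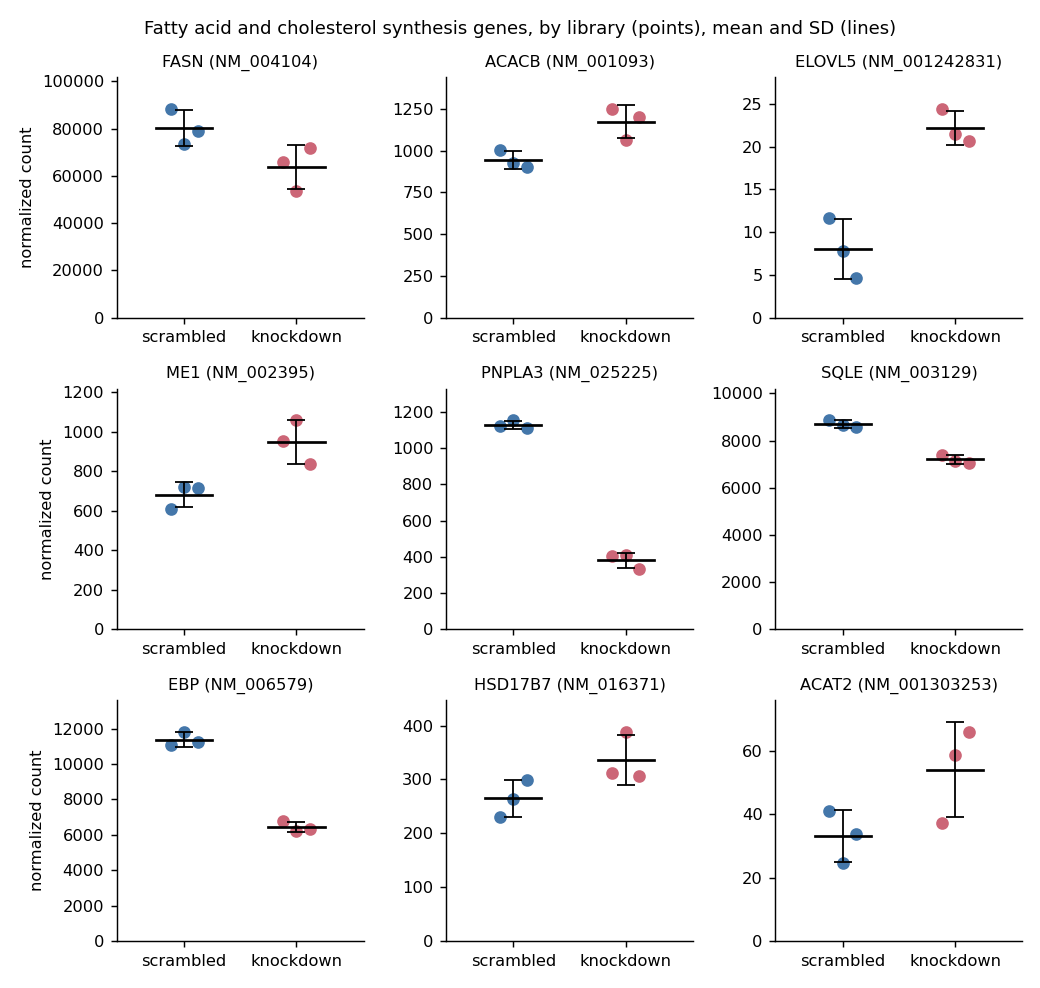
Normalized count (y axis, from 0) of the tested row of each of the 9 genes in the 3 scrambled and 3 ABL1 knockdown libraries (points), with the mean and SD of each group (lines). The groups are apart in every panel but that of ACAT2, where the lowest knockdown library, at 37.2, lies below the highest scrambled one, at 40.9.

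Of the genes that supply and build fatty acids, ME1 encodes the cytosolic malic enzyme, a source of NADPH. Its row (NM_002395, chr6:83210389-83431071 on the minus strand of GRCh38, 14 exons) had 609, 722 and 712 normalized counts with the scrambled hairpin and 950, 1058 and 838 with the ABL1 hairpin. All 3 knockdown libraries lay above all 3 scrambled ones. The mean rose from 681 ± 62.7 to 948 ± 110 (SD, n = 3 each), a log2 change of 0.48 (SE 0.10, limma adjusted p = 0.00214). It kept its call under every alternative tried, with a log2 change between 0.39 and 0.65.

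ACACB encodes acetyl-CoA carboxylase beta, the mitochondrial form of the enzyme, whose malonyl-CoA is best known for holding back the entry of fatty acids into mitochondria for oxidation. Its row (NM_001093, chr12:109139397-109268223, plus strand, 52 exons) had 1003, 928 and 904 normalized counts with the scrambled hairpin and 1252, 1061 and 1203 with the ABL1 hairpin. The lowest knockdown library was above the highest scrambled one by less than the SD of the knockdown libraries. The mean rose from 945 ± 51.8 to 1172 ± 99.0 (SD, n = 3 each), a log2 change of 0.31 (SE 0.087, limma adjusted p = 0.0102), and the call was lost without knockdown library 1 (0.26, limma adjusted p = 0.0587). The cytosolic carboxylase ACACA, which supplies fatty acid synthase, is not analysed here.

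FASN encodes fatty acid synthase, the multifunctional enzyme that makes palmitate. Its row (NM_004104, chr17:82078333-82098332, minus strand, 43 exons) had 88459, 73441 and 79015 normalized counts with the scrambled hairpin and 65976, 53601 and 71593 with the ABL1 hairpin. Every knockdown library was below every scrambled one, but the gap between the nearest pair was smaller than the SD of either group. The mean fell from 80305 ± 7591 to 63723 ± 9205 (SD, n = 3 each), a log2 change of -0.34 (SE 0.11, limma adjusted p = 0.0215). This call depended on the scale: with each library brought to the same total the change was -0.17 (adjusted p = 0.175), and with quantile normalization it was -0.018 (adjusted p = 0.881). It was also lost without scrambled library 1 (-0.27, limma adjusted p = 0.0917), without scrambled library 3 (-0.35, limma adjusted p = 0.0558) and without knockdown library 2 (-0.22, limma adjusted p = 0.0928).

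ELOVL5 encodes an elongase of polyunsaturated fatty acids. Both ELOVL5 rows were thin, and neither stands for the main transcript of the gene alone. The tested row, NM_001242831, is a short transcript with 3 exons and 580 bases (chr6:53294088-53348926, minus strand) that carries 267 coding bases including the stop codon, against 900 for the full-length model ELOVL5-201. It shares its first coding exon with the full-length model and then ends in an exon of its own. The coding part of exon 3 in each of the models is shown because it is what sets the short row apart. They are read 5′ to 3′ on the minus strand of GRCh38, at chr6:53291776-53291963 for the full-length model (188 bases) and chr6:53294283-53294491 for the short one (209 bases), and the capitals mark the stop codon of the short reading frame.
ELOVL5-201 exon 3: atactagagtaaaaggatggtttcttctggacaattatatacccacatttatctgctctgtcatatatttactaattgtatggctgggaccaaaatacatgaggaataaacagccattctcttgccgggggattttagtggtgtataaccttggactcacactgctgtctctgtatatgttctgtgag
ELOVL5-202 exon 3: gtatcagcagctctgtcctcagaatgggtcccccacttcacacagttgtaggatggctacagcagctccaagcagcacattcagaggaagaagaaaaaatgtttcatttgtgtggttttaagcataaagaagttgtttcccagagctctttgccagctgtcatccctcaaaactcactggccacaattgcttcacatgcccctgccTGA

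**Figure D2:**
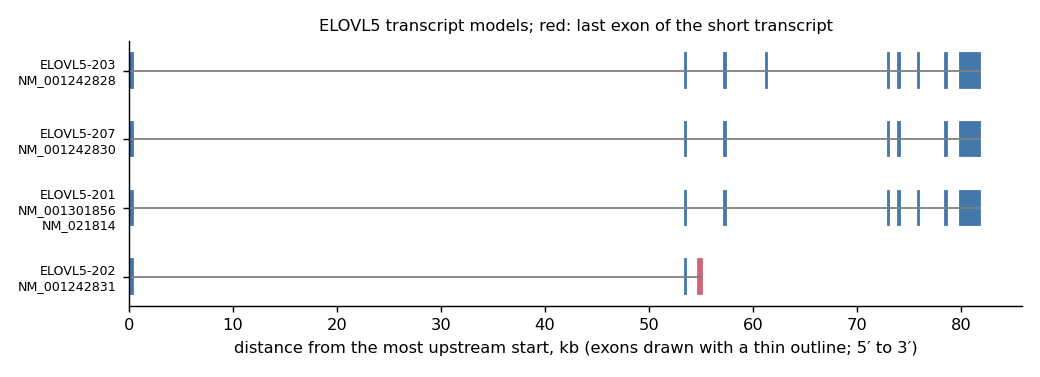
Exons (boxes) and introns (lines) of 4 ELOVL5 transcript models from GENCODE 29, by distance in kb from the most upstream start. The short model ELOVL5-202 ends in the exon drawn in red and lacks the downstream exons that the other models share.

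The short ELOVL5 transcript had 14, 7 and 5 reads with the scrambled hairpin and 25, 19 and 20 with the ABL1 hairpin, or 11.7, 7.85 and 4.69 against 24.5, 21.5 and 20.6 normalized counts. The knockdown libraries were all above the scrambled ones. The mean rose from 8.07 ± 3.50 to 22.2 ± 2.01 (SD, n = 3 each), a log2 change of 1.43 (SE 0.39, limma adjusted p = 0.00881). The ratio of the pooled reads, each group's reads being scaled by its libraries, was 2.70 with an exact 95% interval of 1.69 to 4.44, which covers counting error only. The other row, NM_001301856, had 3, 3 and 2 reads against 13, 5 and 6 and was too thin to be tested. It has the same exon model as NM_021814, whose own row is not analysed here, so neither row gives the level of the full-length enzyme.

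PNPLA3 encodes a lipase of lipid droplets that is strongly expressed in liver and is itself a target of SREBP-1c. Its row (NM_025225, chr22:43923739-43947568, plus strand, 9 exons) had 1125, 1156 and 1113 normalized counts with the scrambled hairpin and 403, 408 and 331 with the ABL1 hairpin. The groups were far apart, and the scrambled libraries lay close together. The mean fell from 1131 ± 22.1 to 381 ± 43.0 (SD, n = 3 each), a log2 change of -1.57 (SE 0.098, 95% interval -1.79 to -1.36, limma adjusted p = 8.57e-08). It kept its call under every alternative tried, with a log2 change between -1.63 and -1.40.

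Of the cholesterol genes, ACAT2 stands first in the pathway. It encodes the cytosolic acetoacetyl-CoA thiolase, which joins a pair of acetyl-CoA molecules, and is not the sterol acyltransferase that shares the abbreviation. Its row, NM_001303253, has the same exon model as NM_005891 (chr6:159760328-159779055, plus strand, 9 exons) and overlaps TCP1 on the opposite strand by 558 bases. This row may thus hold only part of the gene's reads. It had 49, 22 and 36 reads with the scrambled hairpin and 38, 52 and 64 with the ABL1 hairpin, or 40.9, 24.7 and 33.8 against 37.2, 58.8 and 66.0 normalized counts. Knockdown library 1 fell among the scrambled libraries, while the other two were higher. The means were 33.1 ± 8.12 and 54.0 ± 15.0 (SD, n = 3 each), with a log2 change of 0.68 (SE 0.28, unadjusted 95% interval 0.07 to 1.28) that did not pass limma's test (adjusted p = 0.0581). It passed with equal totals (0.85, limma adjusted p = 0.0224), without scrambled library 1 (0.84, limma adjusted p = 0.0401) and without knockdown library 1 (0.92, limma adjusted p = 0.0164). The row of TCP1 (NM_030752) had 2 to 9 reads per library and was not tested.

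SQLE encodes squalene epoxidase, the first oxygen-requiring step and a rate-limiting one. Its row (NM_003129, chr8:124998506-125022283, plus strand, 11 exons) had 8870, 8657 and 8576 normalized counts with the scrambled hairpin and 7406, 7134 and 7070 with the ABL1 hairpin. The groups did not overlap, and each was tight. The mean fell from 8701 ± 152 to 7203 ± 178 (SD, n = 3 each), a log2 change of -0.27 (SE 0.065, limma adjusted p = 0.00357). With equal totals the change was -0.099 (adjusted p = 0.186) and with quantile normalization -0.091 (adjusted p = 0.209), so this fall, like that of FASN, was called only where the authors' scale or one close to it was used.

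HSD17B7 encodes a 3-ketosteroid reductase that works with MSMO1 and NSDHL in removing the methyl groups at C4 of the sterol ring. Its row (NM_016371, chr1:162790746-162812529, plus strand, 9 exons) had 230, 265 and 299 normalized counts with the scrambled hairpin and 312, 389 and 306 with the ABL1 hairpin. The lowest knockdown library was just above the highest scrambled one. The mean rose from 265 ± 34.6 to 336 ± 46.0 (SD, n = 3 each), a log2 change of 0.34 (SE 0.13, limma adjusted p = 0.0457). The adjusted p was close to the threshold, and the call was lost without scrambled library 1 (0.25, limma adjusted p = 0.163), scrambled library 2 (0.35, limma adjusted p = 0.0787), knockdown library 1 (0.39, limma adjusted p = 0.0541) or knockdown library 2 (0.23, limma adjusted p = 0.181). The pseudogene HSD17B7P2 on chromosome 10 is a near copy of the gene, and no source used here says how reads that fit both were counted. Its row rose as well, from 72.2 ± 7.13 to 104 ± 11.8 (SD, n = 3 each, log2 change 0.52, limma adjusted p = 0.0228), so the value of HSD17B7 is uncertain by the reads they may share.

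EBP encodes the emopamil binding protein, the sterol isomerase that moves a double bond in the B ring late in the pathway. Its row (NM_006579, chrX:48521158-48528716, plus strand, 5 exons) had 11054, 11836 and 11259 normalized counts with the scrambled hairpin and 6755, 6221 and 6354 with the ABL1 hairpin. No knockdown library came near the scrambled level. The mean fell from 11383 ± 405 to 6443 ± 278 (SD, n = 3 each), a log2 change of -0.82 (SE 0.068, 95% interval -0.97 to -0.67, limma adjusted p = 8.92e-07). The call held under every alternative tried, with a log2 change between -0.86 and -0.58.

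**Figure D3:**
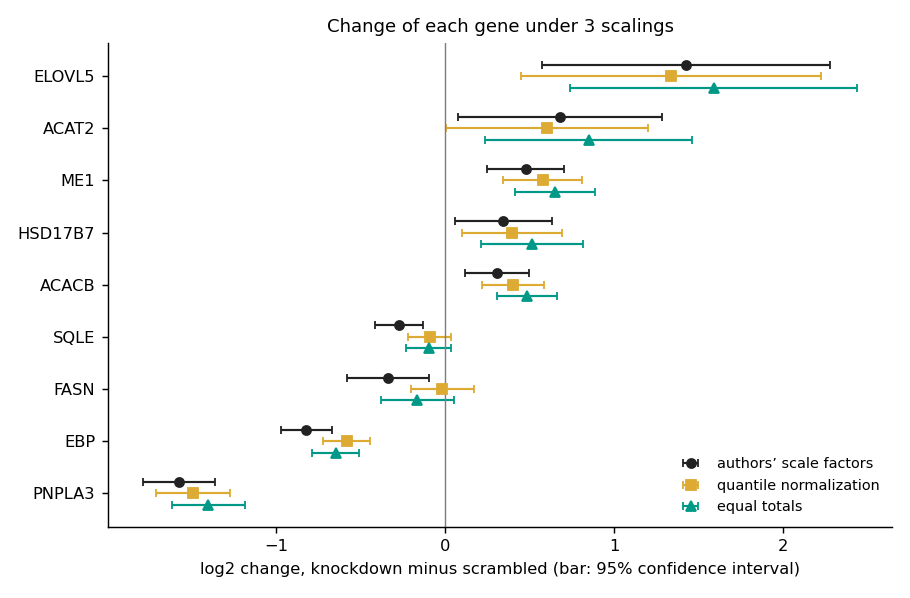
Log2 change (x axis, knockdown minus scrambled) of each gene with its 95% interval under the authors' scale factors (circles), quantile normalization (squares) and equal totals (triangles). PNPLA3 and EBP stay left of 0 under all 3, whereas the intervals of FASN and SQLE include 0 under quantile normalization and equal totals.

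Levels between genes were compared per kb of transcript, for the 7 genes outside ELOVL5 and ACAT2, whose rows share exons with other transcripts of the gene that are not analysed here. FASN was the most abundant, with 9376 ± 886 normalized counts per kb in the scrambled libraries (SD, n = 3), followed by EBP with 6413 ± 228 and SQLE with 2938 ± 51.4. PNPLA3 came next with 403 ± 7.87. HSD17B7 with 222 ± 29.1 and ME1 with 202 ± 18.6 did not differ beyond their spread, and ACACB was lowest with 102 ± 5.60. In the knockdown, PNPLA3 fell to 136 ± 15.3, next to ACACB at 127 ± 10.7, and these did not differ beyond their spread. HSD17B7 at 282 ± 38.7 and ME1 at 281 ± 32.7 again lay together, now above PNPLA3. The ranks of FASN (7440 ± 1075), EBP (3630 ± 157) and SQLE (2433 ± 60.2) stayed as they were. ACACB has 9 curated coding transcripts in RefSeq and HSD17B7 has 3, so their rows may hold part of the gene's reads.

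Among the genes described here, the direction of change went with the number of transcripts. FASN, ME1, PNPLA3, SQLE and EBP have 1 curated coding transcript in RefSeq, and ACACB, ELOVL5, HSD17B7 and ACAT2 have 2 or more. The 4 genes that fell were all in the first group, and the only one of that group to rise was ME1. Of those that fell, FASN and SQLE were not called with equal totals or quantile normalization, and in the second group ACAT2 did not pass. Of the tested genes grouped in this way, which are not all of the 8382, those with 1 such transcript were called higher in 24.4% of cases and lower in 35.8% (3917 genes). Those with 2 or more were called higher in 23.4% and lower in 24.1% (3127 genes). The part that transcript number takes in the directions was not tested.

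Across the 6 libraries, the most similar profiles among the 9 genes were those of ME1 and HSD17B7. After each row was centred on its own mean, their log2 values differed by a root mean square of 0.10. FASN and SQLE differed by 0.15, and ELOVL5 and PNPLA3 were farthest apart, at 1.54. Of the other 8599 rows, the nearest to PNPLA3 were TOP2A (0.074), a topoisomerase of dividing cells, and TIMP2 (0.076), an inhibitor of metalloproteinases. The nearest to EBP were CFAP126 (0.021) and TFAP4 (0.029), to SQLE RRAS (0.016) and AGFG2 (0.030), and to FASN INTS1 (0.0058) and PRR14 (0.033). ME1 was nearest to HSD17B11 (0.022) and ZNF776 (0.026), ACACB to CCS (0.027) and TPP1 (0.030), and HSD17B7 to ESCO1 (0.039) and SMIM15 (0.045). The thin rows had looser neighbours, SLC10A5 (0.11) and CT83 (0.15) for ELOVL5 and IQSEC1 (0.092) and NUP50 (0.12) for ACAT2.

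Because ME1 and HSD17B7 moved most alike, the sequence before their starts is shown. It comes from the RefSeq promoter table for GRCh38.p14 and was cut where an annotated exon of the gene begins, which leaves 250 bases for HSD17B7 (chr1:162790452-162790701, plus strand) and 230 for ME1 (chr6:83431072-83431301, minus strand). Capitals mark matches to the CCAAT box (CCAAT or ATTGG) and the GC box (GGGCGG or CCGCCC) on either strand.
HSD17B7 upstream: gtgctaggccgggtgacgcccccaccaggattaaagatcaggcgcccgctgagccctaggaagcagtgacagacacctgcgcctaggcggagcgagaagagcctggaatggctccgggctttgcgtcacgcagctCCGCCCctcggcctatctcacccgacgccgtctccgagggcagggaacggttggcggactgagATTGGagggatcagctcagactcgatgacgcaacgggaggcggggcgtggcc
ME1 upstream: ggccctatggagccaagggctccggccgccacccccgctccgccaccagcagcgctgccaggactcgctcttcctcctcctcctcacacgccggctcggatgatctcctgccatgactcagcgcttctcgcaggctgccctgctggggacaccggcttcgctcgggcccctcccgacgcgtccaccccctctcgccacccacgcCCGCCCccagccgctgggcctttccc

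HSD17B7 had a GC box starting at -115 and a CCAAT box nearer the start, and ME1 had a GC box at -46 and no CCAAT box, with positions counted from the RefSeq start. Promoter windows of 300 bases were at hand for ACACB (2 windows), EBP, ELOVL5, HSD17B7 and ME1, or 6 windows of 5 genes. The letters TCACNCCAC, the sterol element of the LDL receptor promoter, were in none of the 6 and in 1.13% of 35116 promoter windows of the same length. The E-box CACGTG was in 1 of the 6, that of ELOVL5, and in 7.26% of all. The CCAAT box was in 4 of the 6 and in 34.6% of all, and the GC box was in 4 of the 6 and in 45.0% of all. Genes that rose and genes that fell both had these letters: the EBP window held 3 CCAAT matches and 1 GC box. That window (chrX:48521558-48521857) lies within the span of the measured EBP row, which starts at 48521158. Neither ACACB window (chr12:109116337-109116636 and chr12:109154429-109154728) covers the start of the measured ACACB row, at 109139397. None of the motifs searched contains another, and a match says only that the letters are present.

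The other genes of the pathways were taken from lists chosen by function. For cholesterol synthesis, 12 of 22 listed genes were tested, of which 2 were called higher, 6 lower and 4 neither, with a median log2 change of -0.07. With equal totals the count was 4 higher and 3 lower, and with quantile normalization 2 higher and 3 lower. The first steps are thinly covered, since HMGCS1 is not analysed here. PMVK (-0.22, limma adjusted p = 0.0481) and MVD (-0.26, limma adjusted p = 0.0236), which phosphorylate and decarboxylate mevalonate intermediates, were called lower. Neither PMVK nor MVD was called lower with equal totals or quantile normalization. MVD also lost its call without each of 4 libraries in turn (scrambled 1 and 3, knockdown 1 and 2). The thin rows of FDPS (NM_001135821, -1.20) and FDFT1 (NM_001287749, -1.22), farnesyl diphosphate synthase and squalene synthase, were called lower. They held 26 to 33 and 23 to 29 reads per scrambled library and may hold only part of each gene's reads. With reads summed per gene, the change of FDFT1 was -0.78 (limma adjusted p = 0.0162). FDFT1 lost its call without scrambled library 2 or knockdown library 1.

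CYP51A1, the lanosterol demethylase, had 352, 262 and 510 against 335, 578 and 727 normalized counts and did not pass (0.52, unadjusted 95% interval -0.04 to 1.09). MSMO1, which precedes HSD17B7, had a change of 0.08 (-0.30 to 0.46) and did not pass either. In both, knockdown library 1 was lower than the other knockdown libraries, as it was for ACAT2. Rows outside this list, such as those of IDH1 and USF2, had the same order, whereas EBP and HSD17B7 did not.

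**Figure D4:**
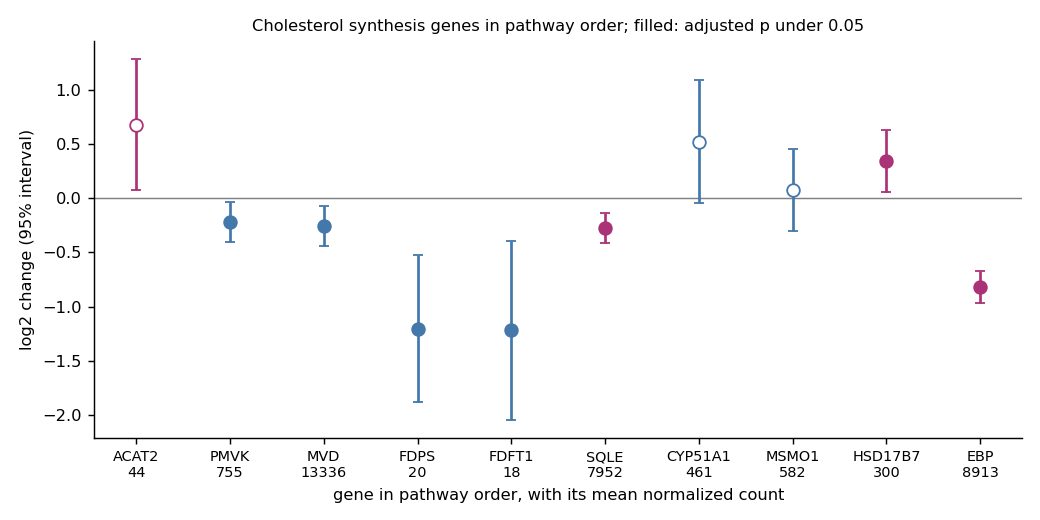
Log2 change (y axis, knockdown minus scrambled) with its 95% interval for 10 genes of cholesterol synthesis in the order of the pathway, with each gene's mean normalized count under its name and calls filled. The wide intervals of FDPS and FDFT1 go with means of 20 and 18 counts, and HSD17B7 and EBP, which follow each other on the axis, lie on opposite sides of 0.

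For fatty acid synthesis, 16 of 32 listed genes were tested, of which 5 were called higher, 5 lower and 6 neither, with a median log2 change of 0.03. With equal totals and with quantile normalization the count was 7 higher and 2 lower. FADS3, a member of the desaturase cluster, fell from 1065, 982 and 965 normalized counts to 435, 366 and 415 (log2 change -1.31, limma adjusted p = 2.67e-07). ELOVL2, which elongates longer polyunsaturated fatty acids than ELOVL5 prefers, fell from 1236, 1315 and 1324 to 759, 684 and 726 (-0.84, limma adjusted p = 2.79e-06). HACD2 (-0.24) and HACD3 (-0.24), dehydratases of the elongation cycle, were also called lower, though neither with equal totals or quantile normalization. HACD3 also lost its call without knockdown library 3. MLYCD, malonyl-CoA decarboxylase, rose (0.32), as did the thin row of IDH1 (1.25), whose groups overlapped. Both MLYCD and IDH1 lost their calls without scrambled library 1 and without scrambled library 2. The stearoyl-CoA desaturase SCD, which makes oleate, had 76171, 81138 and 77371 normalized counts against 74534, 71695 and 69679. Its groups did not overlap, but the difference did not pass (-0.12, unadjusted 95% interval -0.29 to 0.05). FADS1 (0.11) and FADS2 (-0.0092) did not pass either.

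For triglyceride assembly and lipid droplets, 12 of 28 listed genes were tested, of which 3 were called higher, 4 lower and 5 neither, with a median log2 change of 0.17. Beside PNPLA3, PNPLA2, which encodes the main triglyceride lipase of droplets, fell from 2153, 1803 and 2128 to 1255, 1022 and 1403 normalized counts (-0.73, limma adjusted p = 1.53e-04). Its activator ABHD5 rose from 263, 312 and 283 to 558, 523 and 536 (0.92, limma adjusted p = 9.17e-06). Its inhibitor G0S2, a thin row with overlapping groups, was called lower (-2.01). G0S2 was left out by the filter or not called with equal totals, and likewise without scrambled library 1 or 3 or knockdown library 2. LPIN2, a phosphatidate phosphatase, rose from 3100, 3082 and 2894 to 5548, 5328 and 5283 (0.83, limma adjusted p = 7.03e-07). GPAT4, which starts glycerolipid synthesis, rose by less (0.29), and the droplet coat gene PLIN4 fell (-0.54).

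For the regulators of both pathways, 14 of 25 listed genes were tested, of which 3 were called higher, 5 lower and 6 neither, with a median log2 change of -0.11. With equal totals the count was 6 higher and 1 lower, and with quantile normalization 2 higher and 2 lower. NR0B2, a nuclear receptor that represses bile acid synthesis, fell from 347, 356 and 338 to 154, 128 and 126 normalized counts (-1.35, limma adjusted p = 1.68e-06). The proteases that release SREBP from the membrane were both called higher, MBTPS1 by 0.46 and MBTPS2 by 0.28, the second not without knockdown library 2. SCAP (-0.23) and INSIG2 (-0.38), which escort and retain SREBP, were called lower, though neither with equal totals or quantile normalization. INSIG2 had overlapping groups and also lost its call without scrambled library 2 or 3 or knockdown library 1 or 3. PRKAA2, a catalytic subunit of AMP-activated kinase, was called lower (-0.43), though not with equal totals. USF2 rose (1.21) on a thin row with overlapping groups. It was not called with quantile normalization, nor without scrambled library 1 or 3 or knockdown library 2 or 3. The row listed for SREBF2 is a non-coding transcript with a log2 change of -0.46 that did not pass, and SREBF1 is not analysed here.

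For cholesterol uptake, storage and export, 11 of 19 listed genes were tested, of which 3 were called higher, 5 lower and 3 neither, with a median log2 change of -0.02. With equal totals the count was 4 higher and 2 lower, and with quantile normalization 3 higher and 2 lower. ABCA1, which exports cholesterol to apolipoprotein A-I, rose from 3712, 3600 and 3761 to 6142, 6510 and 6667 normalized counts (0.80, limma adjusted p = 9.31e-07). SOAT2, the sterol acyltransferase that stores cholesterol as esters, rose (0.51), and so did NPC2 (0.58), which hands cholesterol on in the lysosome. NPC1, its partner, was called lower (-0.26), though not with equal totals or quantile normalization. MYLIP, a ubiquitin ligase for the LDL receptor, fell from 367, 350 and 354 to 194, 179 and 187 (-0.93, limma adjusted p = 1.24e-05), and CYP27A1, sterol 27-hydroxylase, fell as well (-0.56). ABCG8 (-0.27) and APOB (-0.20) were called lower, though neither with equal totals or quantile normalization.

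**Figure D5:**
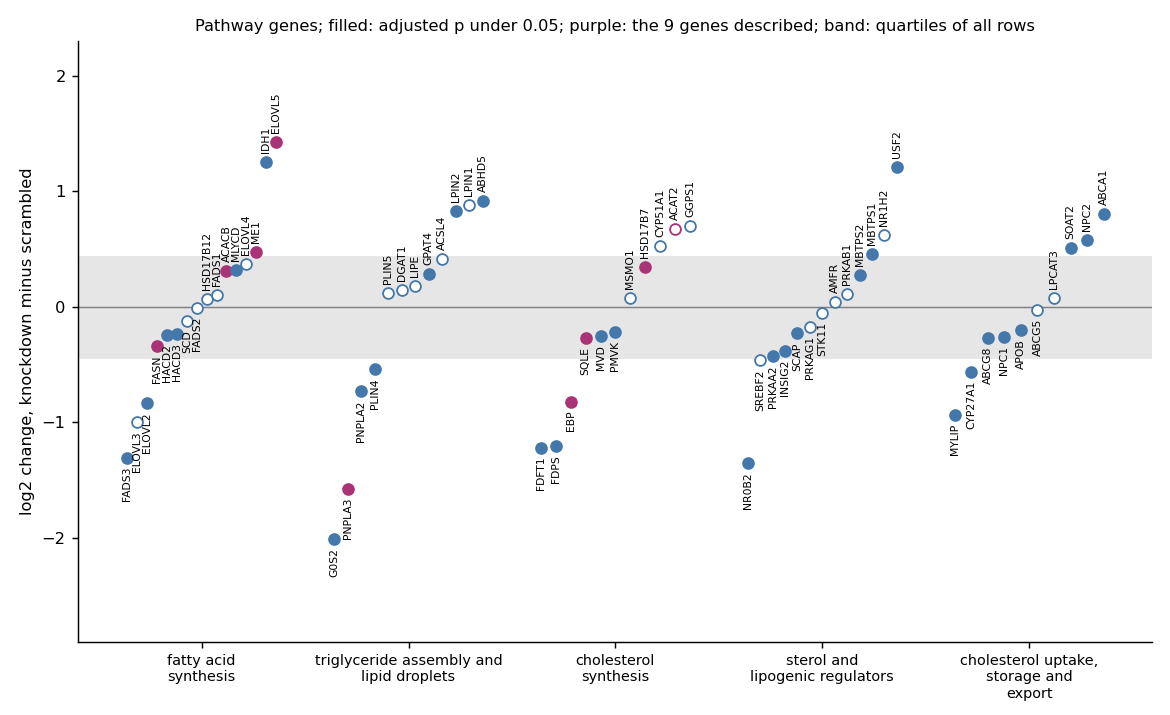
Log2 change (y axis, knockdown minus scrambled) of tested genes in the 5 pathway lists, with calls filled, the 9 genes in purple and the range between the quartiles of all tested rows as a grey band. Each list holds genes on both sides of 0, and PNPLA3, EBP, ME1, ACAT2 and the short ELOVL5 transcript lie outside the band.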

How the data were processed

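RNA of 6 libraries (3 scrambled, 3 ABL1 knockdown) was measured. Per the submitters' processing notes, HISAT2 2.0.4, HTSeq 0.6.1 and the hg38 build were used; the sources used here state neither their roles, nor strand, nor how reads shared by transcripts were counted. The deposited table holds 1 signal per RefSeq transcript and library, and from its values this signal is the square root of reads plus 0.375, times 1 scale per library. Squaring gave whole reads, within 0.05, for 100% of values. Reads were put back on the authors' scale as normalized counts. Reads and scale were recovered from the values, so the main test stayed on a log scale.

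A row was tested where its normalized count averaged 10 or more, which took in 8600 rows and left out 1591. The test was limma 3.58.1 (lmFit, eBayes with trend) under R 4.3.3, fitted two-sided to log2(normalized count + 1). Adjustment was by Benjamini-Hochberg over the 8600 rows, with a threshold of 0.05. The log2 change understates that of thin rows. Within groups, chi-square per degree of freedom was 5.95 to 10.7, so no library was a duplicate.

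The 9 genes and the pathway and marker lists were chosen with earlier results of these data known. Each gene entered a list with its most abundant tested row. By rule, the text names every row of the 9 genes and of ABL1, the 6 genes of each pathway list with the smallest p among those past the threshold, and the 2 nearest rows to each of the 9; other list genes, HSD17B7P2 and TCP1 were named after their values were seen. Some list genes that the rule names are not reported here. Positions and exons are from GENCODE 29 (GRCh38). Of the 9 genes, 5 matched the promoter table; FASN, PNPLA3, SQLE and ACAT2 did not. Alternatives covered the pseudocount (0.5, 5), filter (none, 50), scaling, variance model, reads summed per gene, a replicate block and each library left out.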

Additional observations from a re-analysis of the deposited data

How the results depend on the processing

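ME1, PNPLA3, EBP and the short ELOVL5 transcript kept their direction and call under every alternative that could be run. With equal totals, which moved the median of all rows by 0.175, and with quantile normalization, 2 of the 9 genes were called lower in place of 4. The log2 change under equal totals and quantile normalization was -0.17 and -0.018 for FASN and -0.099 and -0.091 for SQLE, none past the threshold; under equal totals ACAT2 passed, at 0.85. Under equal totals the lists had these counts: 2 lower for fatty acid synthesis, 4 higher and 3 lower for cholesterol synthesis, 6 higher and 1 lower for regulators and 2 lower for uptake, storage and export; under quantile normalization the lower counts were 2, 3, 2 and 2. HSD17B7 missed the threshold with no filter (0.34, limma adjusted p = 0.0505), which left 1 cholesterol gene called higher, and a filter of 50 left 3 genes higher in fatty acid synthesis. The filter of 50 left out ELOVL5, ACAT2, FDPS, FDFT1 and ABL1, which have no value there. The causes were not tested.

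The replicate numbers do not pair the libraries (correlations of same-numbered deviations 0.0471, 0.0765 and 0.0768). With a replicate block ACAT2 passed (0.68, limma adjusted p = 0.0339) and 4 cholesterol genes were called higher; it changed no other call of the 9 genes. Without the trend in eBayes, FASN (-0.34, limma adjusted p = 0.0951) and HSD17B7 (0.34, limma adjusted p = 0.104) missed the threshold. So did HACD2, HACD3, INSIG2, SCAP, MBTPS2, MVD, PMVK, ABCG8 and APOB. MLYCD, IDH1 or both missed it too, since 4 fatty acid synthesis genes were then called higher in place of 5.

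Leaving out 1 library at a time gave log2 changes of -0.43 to -0.22 for FASN, 0.26 to 0.38 for ACACB, 0.23 to 0.43 for HSD17B7 and 0.49 to 0.92 for ACAT2. The counts were 3 to 6 higher and 3 to 5 lower for fatty acid synthesis, 1 to 4 higher and 3 to 5 lower for cholesterol synthesis, 1 to 3 higher and 3 to 4 lower for regulators, 3 higher and 3 to 5 lower for cholesterol uptake, storage and export. The thin rows of ELOVL5, ACAT2, FDPS, FDFT1 and G0S2 are limited by counting error.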
